A study of Mus musculus with 12 samples.

Results

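Messenger RNA levels of 34 genes of glycolysis and pyruvate metabolism were followed in mouse embryoid bodies that carried or lacked the histone acetyltransferase Gcn5, which the gene Kat2a encodes. Embryoid bodies are aggregates in which embryonic stem cells leave pluripotency and begin to differentiate. The genes were chosen by name, with earlier results of these data known. Their Ensembl IDs matched 34 of the 18269 genes that the deposited table lists. A mean of at least 10 normalised reads in at least 1 group was asked of a gene for testing, which all 34 passed, as did 17000 genes in all.

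Null embryoid bodies came from the Gcn5-/- line 4C2 and floxed ones from the Gcn5 fx/fx line 4_1, whose Gcn5 gene is flanked by recombination sites. Both lines are of the C57BL/6 strain, and no other treatment is named. Each line was sampled at day 3 and at day 5 of differentiation with 3 samples per group, which makes 12 libraries of stranded total RNA (the series' own text speaks of duplicates). A genotype is thus represented by a single line, so effects of the line and of the genotype cannot be told apart. Nothing states that samples of a group were grown separately, and the p-values below rest on the spread between them, which may be technical.

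Glycolysis splits glucose into pyruvate and yields ATP and building blocks without oxygen. Pyruvate is then either reduced to lactate, which leaves the cell through monocarboxylate transporters, or passed to mitochondria, where pyruvate dehydrogenase turns it into acetyl-CoA. Pyruvate dehydrogenase kinases switch that complex off by phosphorylation. Pluripotent stem cells are known for active glycolysis, and many genes of the pathway are known targets of the hypoxia-inducible factor HIF-1 and of Myc.

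The recovered reads of the listed genes came to 18022071 to 26803369 per null library and 23090915 to 29446068 per floxed library. The first principal component (60.2% of the variance) separated the days and the second (14.5%) the genotypes, while on the third (5.89%) the libraries numbered 3 of null day 3, null day 5 and floxed day 5 lay apart. Kat2a (ENSMUSG00000020918.14, chromosome 11, 100704746 to 100712465) had 649, 614 and 840.5 normalised reads in null and 2077, 2226 and 2379.8 in floxed libraries at day 3. The day 5 values were 739, 852 and 860.2 in null and 2161, 2391 and 2071 in floxed libraries. It was lower in null at both days (log2 change -1.68 ± 0.11 and -1.43 ± 0.11), and reads outside the deleted part of the gene cannot be separated in a table with 1 value per gene. Normalised reads are read counts divided by a size factor per library, and 3 values in a row are libraries 1, 2 and 3 of a group. Log2 changes are given ± SE and means ± SD (n = 3), positions are on the mm10 build, and a gene was called at a Benjamini-Hochberg adjusted p under 0.05 over all genes tested (limma, two-sided).

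Null embryoid bodies were compared with floxed ones at each day to ask how the 34 genes differ where Gcn5 is absent. At day 3, 6 members were higher in null and 0 lower, that is 17.6% higher, where 4.09% of all genes tested were called higher and 2.03% lower. At day 5, 14 were higher and 2 lower in null, that is 41.2% and 5.88%, against 13.0% and 13.5% of all genes tested. The median log2 change of the members was 0.29 at day 3 and 0.25 at day 5, against -0.0036 and -0.020 over all genes tested. All null libraries lay above all floxed ones for 16 members at day 3 and below them for 1, where 14.8% and 13.1% of all genes tested were so separated. At day 5 the counts were 15 above and 2 below, with 19.8% and 22.2% of all genes tested. These shares and medians describe the list, which was chosen with earlier results of these data known and was not itself tested. The samples are bulk RNA, so fewer cells of a type and less RNA per cell cannot be told apart. With replicate number as a block, 9 members were higher and 0 lower at day 3 (6.45% and 4.53% of all genes tested). At day 5 the block gave 15 higher and 2 lower (15.9% and 17.3%). With DESeq2, 11 members were higher at day 3, where it called 6.99% of the 14685 genes with an adjusted p higher.

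**Figure D1:**
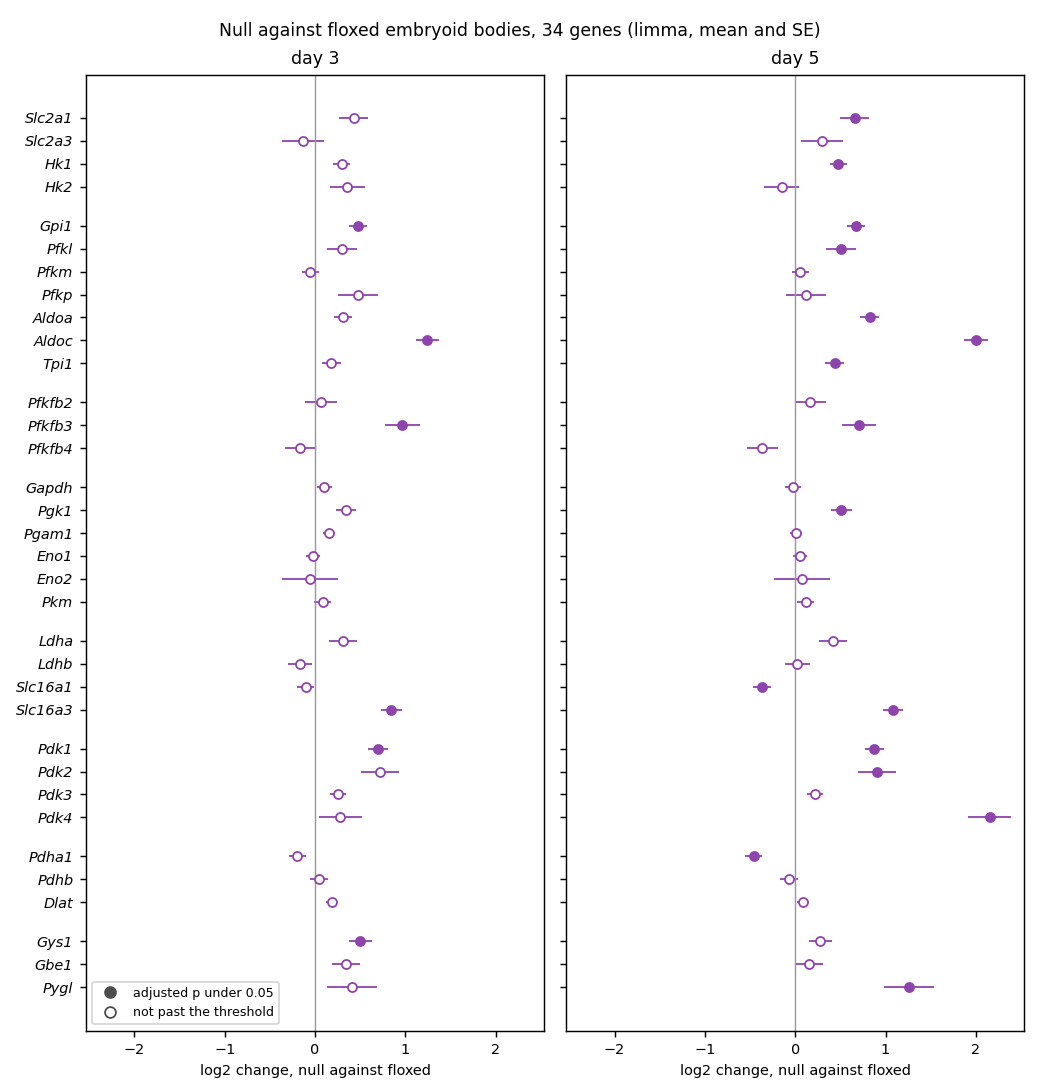
Log2 change (horizontal axis) of each of the 34 genes in null against floxed embryoid bodies at day 3 (left) and day 5 (right), with points for the limma estimate, bars for its SE and filled points for an adjusted p under 0.05. At day 3, 6 points are filled, all right of 0 (higher in null), and at day 5, 14 filled points lie right of 0 and 2 (Slc16a1 and Pdha1) left of it.

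The members called at both days were Gpi1, Aldoc, Pfkfb3, Slc16a3 and Pdk1, all higher in null. Gys1 was called at day 3 alone, 11 members at day 5 alone and 17 at neither day. How many of all genes tested were called at both days, at 1 day alone or at neither was not computed. In the interaction test of limma, Pdk4 was the 1 member whose genotype difference changed between the days. Aldoc passed it too with the replicate block, and Aldoc and Aldoa with DESeq2, which called 1.63% of genes higher there. The 250 bases before the most upstream listed start of Pdk4 and of the 5 members called at both days are shown for the core letters that HIF-1 is known to bind, ACGTG or GCGTG. They are from RefSeq (build GRCm38.p6), written 5′ to 3′ on the strand of the gene, and capitals mark those letters on either strand. The Gpi1 window is chr7:34230337-34230586, minus strand. That of Aldoc is chr11:78322823-78323072, plus strand, and that of Pfkfb3 chr2:11553930-11554179, minus strand. Slc16a3 has chr11:120948817-120949066, plus strand. The Pdk1 window is chr2:71872974-71873223, plus strand, and that of Pdk4 chr6:5496279-5496528, minus strand. By the gene positions given below, the Slc16a3 window lies inside the gene, and those of Aldoc, Pfkfb3 and Pdk4 reach into theirs.
Gpi1: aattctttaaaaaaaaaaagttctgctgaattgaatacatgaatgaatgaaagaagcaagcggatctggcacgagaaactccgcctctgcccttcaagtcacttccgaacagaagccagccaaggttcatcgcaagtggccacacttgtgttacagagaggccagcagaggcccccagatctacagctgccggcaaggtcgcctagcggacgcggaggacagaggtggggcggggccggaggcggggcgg
Aldoc: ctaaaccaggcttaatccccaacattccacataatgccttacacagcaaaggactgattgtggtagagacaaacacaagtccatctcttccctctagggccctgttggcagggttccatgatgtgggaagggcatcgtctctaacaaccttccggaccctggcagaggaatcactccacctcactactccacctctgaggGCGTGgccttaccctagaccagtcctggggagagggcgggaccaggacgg
Pfkfb3: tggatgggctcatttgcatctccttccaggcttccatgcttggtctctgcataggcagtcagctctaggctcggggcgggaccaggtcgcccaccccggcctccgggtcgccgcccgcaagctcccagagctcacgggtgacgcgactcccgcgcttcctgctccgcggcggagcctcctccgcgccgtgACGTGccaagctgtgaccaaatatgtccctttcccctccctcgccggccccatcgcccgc
Slc16a3: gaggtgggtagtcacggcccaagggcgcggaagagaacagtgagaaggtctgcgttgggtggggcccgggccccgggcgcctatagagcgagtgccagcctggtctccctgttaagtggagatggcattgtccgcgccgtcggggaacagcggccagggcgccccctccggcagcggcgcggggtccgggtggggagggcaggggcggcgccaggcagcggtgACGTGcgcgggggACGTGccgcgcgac
Pdk1: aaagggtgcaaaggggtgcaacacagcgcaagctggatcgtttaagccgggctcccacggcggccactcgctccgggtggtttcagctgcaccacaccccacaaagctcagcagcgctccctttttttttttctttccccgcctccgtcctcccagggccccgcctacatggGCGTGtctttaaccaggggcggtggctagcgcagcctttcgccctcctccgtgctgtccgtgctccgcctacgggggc
Pdk4: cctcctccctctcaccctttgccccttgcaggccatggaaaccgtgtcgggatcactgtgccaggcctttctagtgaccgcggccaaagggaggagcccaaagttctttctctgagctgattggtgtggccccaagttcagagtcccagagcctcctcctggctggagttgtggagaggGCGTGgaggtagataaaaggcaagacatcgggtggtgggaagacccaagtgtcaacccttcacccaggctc

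A match lay 50 bases before the listed start in Aldoc, 60 in Pfkfb3, 27 and 14 in Slc16a3, 78 in Pdk1 and 71 in Pdk4, counted to its first base. The Gpi1 window held 0 matches. Across the members, 27 of 33 genes with a listed start, and 37 of their 49 windows (75.5%), held at least 1 match, against 12679 of the 32851 windows of all genes (38.6%), each window being the 250 bases before a start. The windows of the members called higher in null in at least 1 comparison held a match in 15 of 22 cases (68.2%), a share no higher than that of all member windows. The letters CACGTG, the E-box that Myc is known to bind, which contain ACGTG on both strands, were in 6 of the 49 member windows (12.2%) and in 6.02% of all windows. These counts describe letters in a window and were not matched for base composition, and no start is listed for Slc2a3.

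Glucose enters through Slc2a1 (GLUT1) and Slc2a3 (GLUT3) and is trapped by the hexokinases Hk1 and Hk2. Of these 4 genes, 0 were called at day 3, where 4.09% of all genes tested were higher and 2.03% lower. Slc2a1 and Hk1 were higher in null at day 5, where 13.0% of all genes tested were higher and 13.5% lower. Slc2a1 (ENSMUSG00000028645.10, chromosome 4, 119108711 to 119137983) had 20928, 16428 and 17984 normalised reads in null and 12342, 12721 and 9977 in floxed libraries at day 5. Its day 3 values were 27478, 18806 and 26316 in null and 18429, 14484 and 20790.3 in floxed libraries. All null libraries were above all floxed ones at day 5 (0.66 ± 0.16, adjusted p = 0.0101), while the groups overlapped at day 3 (0.43 ± 0.16, adjusted p = 0.133). Without null day 3 library 2, the lowest of its group, the day 3 difference passed (adjusted p = 0.0454), and without the 4 libraries numbered 3 the day 5 call was lost (adjusted p = 0.0558). Hk1 (ENSMUSG00000037012.18, chromosome 10, 62268855 to 62379908), the hexokinase found in most tissues, had 1335, 1304 and 1383 in null and 927, 1069 and 898 in floxed libraries at day 5. Values at day 3 were 1386, 1154 and 1240.1 in null and 1031, 1087 and 958 in floxed. Its groups were apart at both days, with a change of 0.48 ± 0.091 at day 5 (adjusted p = 0.00277) and 0.29 ± 0.091 at day 3 (adjusted p = 0.0767; 0.0333 with DESeq2). Hk2, the more inducible hexokinase, overlapped between the genotypes at both days (0.36 ± 0.20 at day 3 and -0.15 ± 0.20 at day 5), and passed at day 3 with the replicate block (adjusted p = 0.0271). Slc2a3 did not pass at either day (-0.14 ± 0.23 and 0.30 ± 0.23).

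Between glucose 6-phosphate and the triose phosphates, 2 of 7 genes were higher in null at day 3 and 5 of 7 at day 5, with 0 lower. Of all genes tested, 4.09% were higher at day 3 and 13.0% at day 5. Aldoc (ENSMUSG00000017390.15, chromosome 11, 78322968 to 78327781), the aldolase isoenzyme best known from brain, had the highest change of the 34 genes at day 3. It had 2578, 1763 and 2192 normalised reads in null and 999, 895 and 835 in floxed libraries at day 3. Day 5 gave 858, 796 and 949 in null and 204, 232 and 211 in floxed libraries. The genotypes were widely apart at both days, and the change was 1.24 ± 0.13 at day 3 (adjusted p = 0.000485) and 2.002 ± 0.13 at day 5 (adjusted p = 4.85e-06). The increase of this difference between the days, 0.76 ± 0.18, did not pass the interaction test (adjusted p = 0.0858) but did with the replicate block (0.0419, where 1.25% of all genes tested were called higher and 1.36% lower) and with DESeq2 (0.0144). Aldoc lies on chromosome 11, as Kat2a does, where the median of the 1332 genes tested was 0.36 at day 3 and 0.33 at day 5. With that median subtracted, Aldoc kept changes of 0.89 (adjusted p = 0.00543) and 1.68 (adjusted p = 1.57e-05). Of the 31 members on other chromosomes, 4 were higher (12.9%) and 0 lower at day 3. At day 5, 11 were higher (35.5%) and 2 lower (6.45%). Shares of all genes tested called higher and lower were 4.09% and 2.03% at day 3, and 13.0% and 13.5% at day 5.

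Aldoa (ENSMUSG00000030695.13, chromosome 7, 126795234 to 126800751), the main aldolase of most cells, had 38906, 39473 and 44312 normalised reads in null and 20365, 26506 and 22737 in floxed libraries at day 5. At day 3 it had 89975, 70904 and 82865 in null and 65712, 66920.1 and 63211 in floxed libraries. The groups were apart at both days, and the change passed at day 5 (0.82 ± 0.10, adjusted p = 0.000271) but not at day 3 (0.31 ± 0.10, adjusted p = 0.101; 0.0465 with DESeq2). The difference between the days was 0.51 ± 0.15 (adjusted p = 0.136; 0.049 with DESeq2). Its exons share 25 of 2911 bp (0.859%) with Fam57b on the opposite strand. Fam57b itself had a mean of 41.1 normalised reads and genotype changes of 0.029 and -0.30, neither called. Whether reads were counted by strand is not given in the sources used here.

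Gpi1 (ENSMUSG00000036427.5, chromosome 7, 34201330 to 34230336), which converts glucose 6-phosphate to fructose 6-phosphate, had 42879.7, 31286 and 35655 normalised reads in null and 27821, 25218 and 25519 in floxed libraries at day 3. The day 5 values were 17109, 15837 and 17434 in null and 10269, 11512 and 9858 in floxed libraries. Null libraries lay above floxed ones at both days, by 0.47 ± 0.10 (adjusted p = 0.0166) and 0.67 ± 0.10 (adjusted p = 0.00073). The day 3 call was lost without floxed day 3 library 2 (adjusted p = 0.0589), without null day 3 library 3 (0.0528), without all libraries numbered 3 (0.106) and in a fit of the day 3 samples alone (0.0611). Pfkl (ENSMUSG00000020277.9, chromosome 10, 77986947 to 78010083), the liver-type phosphofructokinase at the committed step, had 6284, 6669 and 7364 in null and 3504, 5826 and 5316 in floxed libraries at day 5. Its day 3 values were 12549.9, 9876 and 12716 in null and 8867, 8582 and 11043 in floxed libraries. At day 5 the lowest null value stood only a little above the highest floxed one (0.50 ± 0.17, adjusted p = 0.0406). The call was lost without floxed day 5 library 1 (log2 0.28, adjusted p = 0.151), null day 5 libraries 1 (0.059), 2 (0.0844) or 3 (0.12), floxed day 3 library 1 (0.0518), or all libraries numbered 3 (0.0954), and in a fit of the day 5 samples alone (0.0717). Tpi1 (ENSMUSG00000023456.14, chromosome 6, 124810586 to 124814296), the triose phosphate isomerase, had 12434, 12304 and 12892 in null and 7461, 10755 and 9875 in floxed libraries at day 5. Values at day 3 were 20446, 18381 and 18476 in null and 16507, 17229.8 and 16754 in floxed libraries. It was higher in null at day 5 (0.44 ± 0.11, adjusted p = 0.00963), a value that was 0.28 without floxed day 5 library 1, the lowest of its group, and still passed (adjusted p = 0.0182). The muscle-type Pfkm (-0.052 ± 0.097 and 0.058 ± 0.097) and the platelet-type Pfkp (0.48 ± 0.22 and 0.12 ± 0.22) did not pass at day 3 or day 5, though Pfkp did at day 3 with the replicate block (adjusted p = 0.0442). Pfkp shares 748 bp of exons (5.58%) with Pitrm1 on the opposite strand.

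Fructose 2,6-bisphosphate, the strongest activator of phosphofructokinase, is made and broken down by the bifunctional enzymes Pfkfb2, Pfkfb3 and Pfkfb4. Pfkfb3 (ENSMUSG00000026773.19, chromosome 2, 11471433 to 11554077), whose kinase activity far exceeds its phosphatase activity, was higher in null at both days. It had 1394, 819 and 768 normalised reads in null and 481, 510.5 and 477 in floxed libraries at day 3. Day 5 gave 999, 903 and 707 in null and 517, 581 and 489.7 in floxed libraries. Null libraries varied more than floxed ones, with library 1 the highest at each day, yet the groups stayed apart (0.97 ± 0.19, adjusted p = 0.0106, and 0.70 ± 0.19, adjusted p = 0.0165). The day 5 call was lost without floxed day 5 library 3 (adjusted p = 0.0527) or null day 5 library 1 (0.0645) or 2 (0.0522). Pfkfb2 (0.067 ± 0.17 and 0.17 ± 0.17) and Pfkfb4 (-0.16 ± 0.17 and -0.36 ± 0.17) were not called at day 3 or day 5, and the Pfkfb4 values lay on the other side of 0.

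In the lower part of the pathway, 0 of 6 genes were called at day 3 and 1, Pgk1, at day 5. Among all genes tested, 4.09% were higher and 2.03% lower at day 3, and 13.0% and 13.5% at day 5. Pgk1 (ENSMUSG00000062070.12, chromosome X, 106187100 to 106203699), the phosphoglycerate kinase that yields ATP, had 15792, 16836 and 17449 normalised reads in null and 9961, 14205 and 11308 in floxed libraries at day 5. At day 3 it had 35349.8, 28397 and 31223 in null and 25312, 23970.0 and 25179.9 in floxed libraries. The groups were apart at both days (0.51 ± 0.11, adjusted p = 0.00605 at day 5, and 0.35 ± 0.11, adjusted p = 0.0894 at day 3). The day 3 change passed without floxed day 5 library 2 (adjusted p = 0.0365) and with DESeq2 (0.0422), and the day 5 call was lost without the libraries numbered 3 (0.0696). The other genes, namely Gapdh, the glyceraldehyde 3-phosphate dehydrogenase, Pgam1, the mutase, the enolases Eno1 and Eno2, and Pkm, the pyruvate kinase, differed between the genotypes by no more than 0.16 in size. Their log2 changes ran from -0.055 (Eno2) to 0.16 (Pgam1) at day 3 and from -0.023 (Gapdh) to 0.12 (Pkm) at day 5. Near-identical copies such as Eno1b, Pgk1-rs7 and Ldha-ps2 are rows of the same table, and how reads that fit several copies were counted is not given in the sources used here.

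At the lactate branch, 1 of 4 genes was higher in null at day 3, and 1 was higher and 1 lower at day 5. Among all genes tested, 4.09% were higher and 2.03% lower at day 3, and 13.0% and 13.5% at day 5. Slc16a3 (ENSMUSG00000025161.16, chromosome 11, 120948480 to 120960868), the transporter MCT4 that exports lactate, had 11996, 11001 and 11748 normalised reads in null and 6389, 6727 and 6227 in floxed libraries at day 3. The day 5 values were 5710.1, 4724 and 4655 in null and 1984, 2845 and 2353 in floxed libraries. The null values lay far above the floxed ones at both days (0.84 ± 0.11, adjusted p = 0.00173, and 1.08 ± 0.11, adjusted p = 0.000101). Slc16a3 is another gene of chromosome 11, and with the chromosome's median subtracted it kept 0.49 (adjusted p = 0.0421) and 0.75 (adjusted p = 0.000807). Slc16a1 (ENSMUSG00000032902.1, chromosome 3, 104638668 to 104658462), the transporter MCT1, which carries lactate in both directions, had 5771, 5598 and 5943 in null and 6846, 7155 and 8439.9 in floxed libraries at day 5. Its day 3 values were 7886, 7819.8 and 6314 in null and 7897, 8320.0 and 7341 in floxed libraries. It was lower in null at day 5 (-0.37 ± 0.097, adjusted p = 0.0145; 0.0607 without floxed day 5 library 3, the highest) and overlapped at day 3 (-0.10 ± 0.097). The 2 transporters thus differed in direction at day 5, each by its own test.

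Ldha (ENSMUSG00000063229.14, chromosome 7, 46841475 to 46855627), the lactate dehydrogenase subunit that favours lactate formation, had 20879, 21297 and 21218 normalised reads in null and 11321, 20277 and 17218 in floxed libraries at day 5. Values at day 3 were 40595, 38614 and 35742 in null and 29806, 32258 and 30556 in floxed libraries. Null libraries were the higher ones at both days, but the change missed the threshold (0.31 ± 0.15, adjusted p = 0.248, and 0.42 ± 0.15, adjusted p = 0.058). At day 5 it passed with the replicate block (adjusted p = 0.0358), with upper-quartile scaling (0.0396) and without floxed day 5 library 2 (0.00837), and at day 3 without floxed day 5 library 1 (0.0344). Ldhb, the subunit of the heart-type enzyme, had -0.17 ± 0.14 and 0.025 ± 0.14.

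All 4 pyruvate dehydrogenase kinase genes had positive changes at both days, 1 of them called at day 3 and 3 at day 5. Among all genes tested, 4.09% were called higher at day 3 and 13.0% at day 5. How many of all genes tested had positive changes at both days was not computed. Pdk1 (ENSMUSG00000006494.11, chromosome 2, 71873224 to 71903858), the kinase best known as a HIF-1 target, had 8617, 10880.2 and 11278 normalised reads in null and 6073, 7189 and 5703 in floxed libraries at day 3. Day 5 gave 5369, 5881 and 6149.6 in null and 3085, 3065 and 3317 in floxed libraries. The genotypes did not overlap at day 3 (0.70 ± 0.11, adjusted p = 0.00306) or at day 5 (0.88 ± 0.11, adjusted p = 0.000211), and both calls held without any single library. Pdk2 (ENSMUSG00000038967.13, chromosome 11, 95026258 to 95041354), the most widely expressed kinase in adult tissues, was low here, with 167, 183 and 174 in null and 76.4, 98.9 and 107 in floxed libraries at day 5. At day 3 it had 96.5, 72.3 and 104 in null and 47.4, 47.2 and 70.7 in floxed libraries. It passed at day 5 (0.90 ± 0.21, adjusted p = 0.00838) and not at day 3 (0.72 ± 0.21, adjusted p = 0.0638). The day 3 change did pass with the replicate block (adjusted p = 0.0307), with DESeq2 (0.0286) and without floxed day 3 library 3 (0.0344) or null day 3 library 2 (0.0487). Pdk2 is on chromosome 11 as well, and its day 5 change was 0.58 (adjusted p = 0.0682) after the chromosome's median was subtracted. Its day 3 change was then 0.36 (adjusted p = 0.378). Pdk3 did not pass (0.25 ± 0.089, adjusted p = 0.117, and 0.21 ± 0.089, adjusted p = 0.0932), except at day 5 with upper-quartile scaling (0.0495) or without floxed day 5 library 2 (0.0493).

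Pdk4 (ENSMUSG00000019577.6, chromosome 6, 5483351 to 5496309), the kinase known to be induced by fasting and fatty acids, was called between the genotypes at day 5 and not at day 3. It had 174, 156 and 275 normalised reads in null and 44.6, 45.2 and 40.2 in floxed libraries at day 5. The day 3 values were 96.5, 60.2 and 85.8 in null and 74.5, 64.3 and 58.0 in floxed libraries. The groups overlapped at day 3 (0.28 ± 0.24, adjusted p = 0.536), whereas every null library stood far above every floxed one at day 5 (2.15 ± 0.24, adjusted p = 0.000132). Between the days it rose in the null line (1.29 ± 0.24, adjusted p = 0.000828) and had a change of -0.58 ± 0.24 in the floxed line (adjusted p = 0.0665). The difference of these changes, 1.87 ± 0.34, passed the interaction test (adjusted p = 0.0353, and 0.0151 with the replicate block), where 0.247% of all genes tested were called higher and 0.229% lower. The call was lost without null day 3 library 1 (adjusted p = 0.0733), 2 (0.0876) or 3 (0.0569), floxed day 3 library 1 (0.0989) or 2 (0.0818), null day 5 library 1 (0.0612), 2 (0.0699) or 3 (0.0733), floxed day 5 library 1 (0.0621) or 3 (0.0645), or all libraries numbered 3 (0.104), while its size stayed between 1.63 and 2.04 without any single library.

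**Figure D2:**
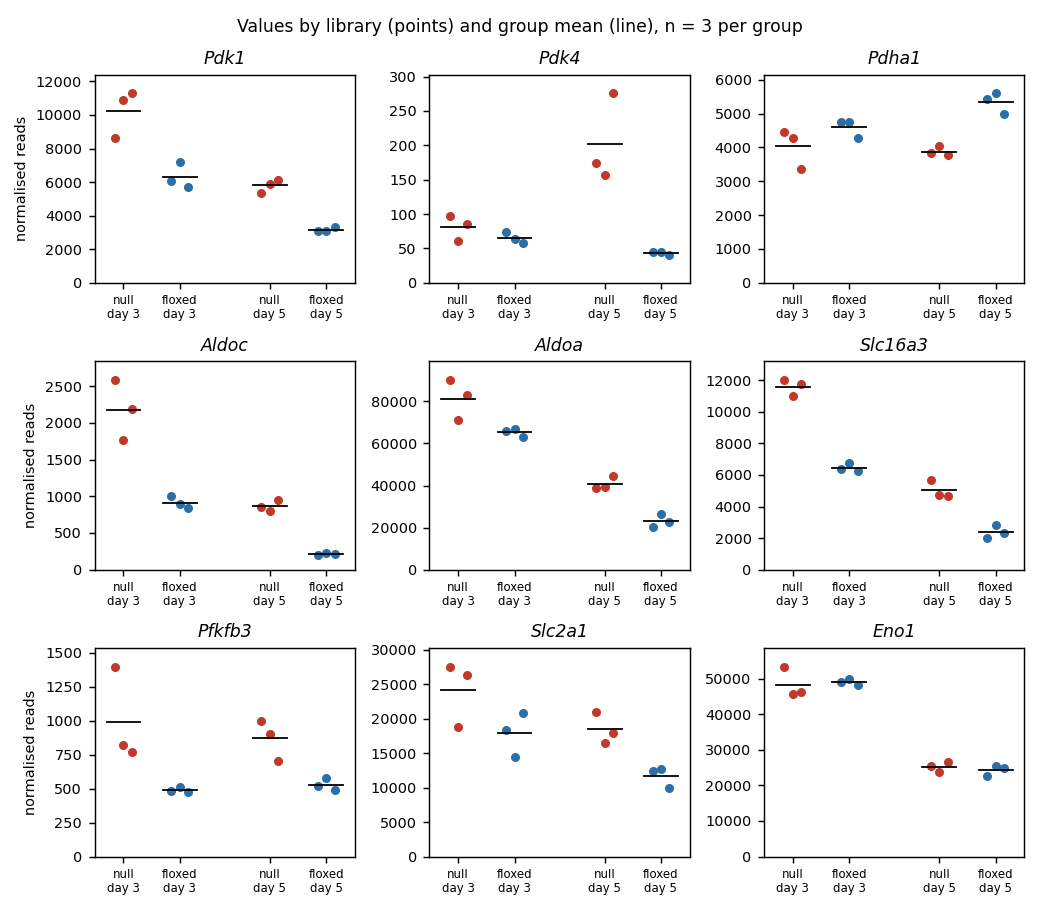
Normalised reads (vertical axes, each starting at 0) of 9 of the genes in each of the 12 libraries, with null (red) left of floxed (blue) at each day, points for libraries and lines for group means. Null points lie above floxed ones at both days for Pdk1, Aldoc, Aldoa, Slc16a3 and Pfkfb3, at day 5 alone for Pdk4 and Slc2a1, and below them at day 5 for Pdha1, while Eno1 overlaps between the genotypes and is lower at day 5.

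Of the subunits of pyruvate dehydrogenase itself, Pdha1 was lower in null at day 5 and Pdhb and Dlat did not differ by the test. Pdha1 (ENSMUSG00000031299.10, chromosome X, 160122209 to 160138413), the E1 alpha subunit that the kinases phosphorylate, had 3825, 4045 and 3765 normalised reads in null and 5433, 5597 and 4989 in floxed libraries at day 5. Its day 3 values were 4458, 4288 and 3356 in null and 4739.6, 4761 and 4274 in floxed libraries. It overlapped at day 3 (-0.20 ± 0.097, adjusted p = 0.252) and was separated at day 5 (-0.46 ± 0.097, adjusted p = 0.00475). Its exons share 603 of 3734 bp (16.1%) with Map3k15 on the opposite strand, whose own change at day 5 was 0.23 (adjusted p = 0.134). Changes were 0.043 ± 0.10 and -0.067 ± 0.10 for Pdhb, the E1 beta subunit, and 0.19 ± 0.063 and 0.085 ± 0.063 for Dlat, the E2 subunit, which passed at day 3 with DESeq2 (adjusted p = 0.0433).

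Of the 3 glycogen genes, Gys1 was called at day 3 and Pygl at day 5, both higher in null. Among all genes tested, 4.09% were called higher at day 3 and 13.0% at day 5. Gys1 (ENSMUSG00000003865.14, chromosome 7, 45434844 to 45456619), the glycogen synthase of muscle and most tissues, had 2189, 1656 and 1686 normalised reads in null and 1396, 1239 and 1249 in floxed libraries at day 3. Values at day 5 were 1649, 1596 and 1386 in null and 1217, 1507 and 1118 in floxed libraries. The groups were apart at day 3 (0.50 ± 0.13, adjusted p = 0.0357) and overlapped at day 5 (0.28 ± 0.13, adjusted p = 0.126; 0.0375 without floxed day 5 library 2). The day 3 call was lost without null day 3 library 1 (adjusted p = 0.117) or 3 (0.0607), floxed day 3 library 1 (0.066), 2 (0.11) or 3 (0.0872), null day 5 library 2 (0.0516) or the libraries numbered 3 (0.0888). It was lost too with chromosome 11 centred (0.0558) and in a fit of the day 3 samples (0.0572). Gys1 shares 310 of 4789 bp (6.47%) with Ruvbl2 on the opposite strand, which had 0.054 ± 0.072 at day 3.

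Pygl (ENSMUSG00000021069.16, chromosome 12, 70190811 to 70231488), the liver-type glycogen phosphorylase, had 391, 442 and 436 normalised reads in null and 136, 327 and 121 in floxed libraries at day 5. Day 3 gave 188, 151 and 182 in null and 127, 123 and 141 in floxed libraries. Floxed day 5 library 2 was well above the other floxed libraries but below the null ones (1.26 ± 0.28, adjusted p = 0.00626; 0.0675 without the libraries numbered 3). At day 3 the change was 0.41 ± 0.28 (adjusted p = 0.417), and the interaction (0.85 ± 0.39, adjusted p = 0.352) passed only without floxed day 5 library 2 (0.0258). Gbe1, the branching enzyme, had 0.34 ± 0.16 and 0.15 ± 0.16 and did not pass at either day.

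Several steps are served by related genes, and the log2 ratio of their values within a library shows whether both moved alike (a description without a test). The Slc16a3 to Slc16a1 ratio averaged 0.66 ± 0.21 in null and -0.28 ± 0.04 in floxed at day 3, and -0.20 ± 0.17 in null and -1.65 ± 0.28 in floxed at day 5. It was higher in every null library, by 0.95 at day 3 and 1.45 at day 5. The Aldoc to Aldoa ratio was also apart at both days, at -5.23 ± 0.10 in null and -6.17 ± 0.11 in floxed at day 3, and -5.56 ± 0.066 in null and -6.74 ± 0.097 in floxed at day 5. Slc2a3 to Slc2a1 ran the other way, lower in null with no overlap (null minus floxed -0.57 at day 3 and -0.36 at day 5). The Ldha to Ldhb ratio was higher in null without overlap at day 3 (0.48) and overlapped at day 5 (0.39). For Pdk1 to Pdk2 the difference was -0.025 at day 3 and -0.025 at day 5, with overlapping groups at both days. Hk2 to Hk1, Pfkp to Pfkl and Eno2 to Eno1 overlapped between the genotypes at both days. Slc16a3, Aldoc and Pdk2 lie on chromosome 11 and their partners in these pairs do not. The ratios were not centred for that chromosome, whose median change was 0.36 at day 3 and 0.33 at day 5.

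**Figure D3:**
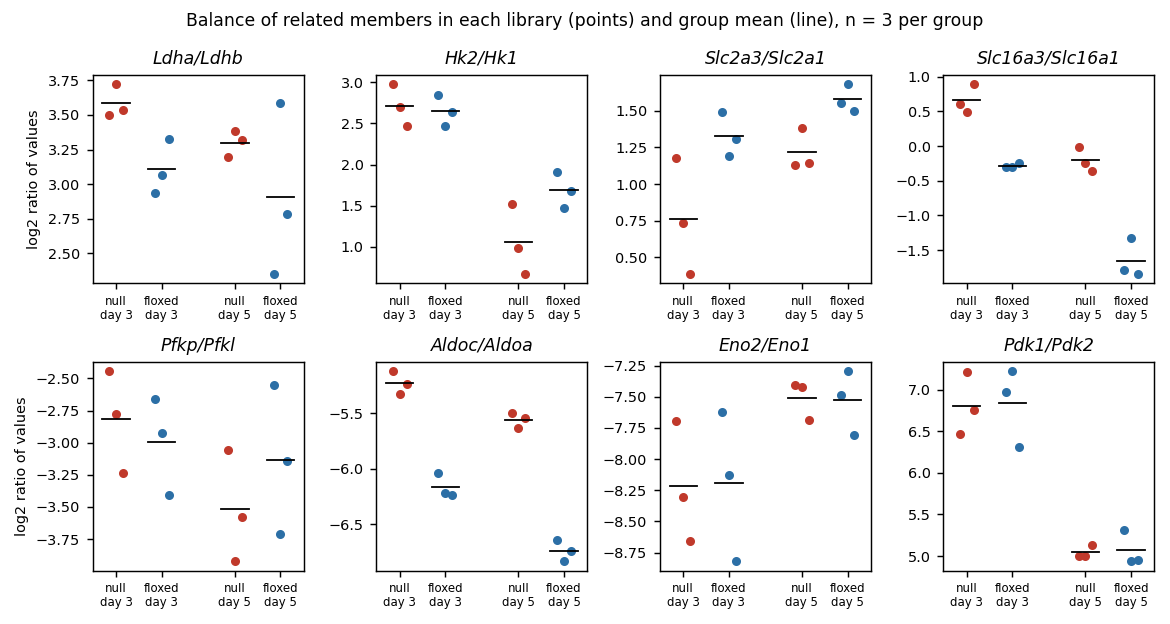
Log2 ratio of the values of 8 pairs of related genes (vertical axes, which do not start at 0) in each library, with null (red) left of floxed (blue) at each day, points for libraries and lines for group means. Slc16a3/Slc16a1 and Aldoc/Aldoa are higher and Slc2a3/Slc2a1 is lower in all null libraries at both days, while Pdk1/Pdk2 overlaps at both. Values are not centred for chromosome 11, which holds Slc16a3, Aldoc and Pdk2 but not their partners.

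Day 5 was compared with day 3 in each line to ask how these genes change as the embryoid bodies differentiate. In the null line 20 members fell and 4 rose, where 21.9% of all genes tested fell and 22.6% rose. In the floxed line 20 fell and 2 rose, where 19.2% fell and 22.5% rose. With the replicate block 22 fell and 4 rose in the null line (24.3% and 25.3% of all genes tested), and 20 fell and 3 rose in the floxed line (21.9% and 24.9%). Library numbers are not taken to pair the days of the floxed line, which limits the block's counts there. The median change of the members was -0.54 in the null and -0.57 in the floxed line, against 0.0037 and 0.00018 over all genes tested. The same 19 members fell in both lines, and 8 of these were higher in null at day 5 (Gpi1, Pfkl, Aldoa, Aldoc, Tpi1, Pgk1, Slc16a3 and Pdk1). Shares of all genes tested that did so were not computed, so these counts describe the members alone. The null and floxed changes share no libraries, but each day's null and floxed groups also enter the genotype comparisons.

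Eno1, Pgam1, Gapdh and Pkm, which were not called between genotypes, had the smallest p of such members in each line. Eno1 (ENSMUSG00000063524.13, chromosome 4, 150236721 to 150248879) had 25463, 23780.0 and 26531 normalised reads at day 5 and 53273, 45599 and 46316 at day 3 in the null line, and 22547, 25449.6 and 25041 at day 5 and 49004, 50067 and 48313 at day 3 in the floxed line. It fell by a similar amount in both (-0.94 ± 0.077, adjusted p = 3.29e-06, and -1.01 ± 0.077, adjusted p = 1.6e-06). Pkm (ENSMUSG00000032294.16, chromosome 9, 59656368 to 59679375) had 61023, 62616 and 67969.6 at day 5 and 112707, 101009 and 110170.0 at day 3 in the null line, and 50553, 61316 and 65640.4 at day 5 and 98253, 103398 and 103149 at day 3 in the floxed line (-0.76 ± 0.093 and -0.79 ± 0.093). Gapdh (ENSMUSG00000057666.18, chromosome 6, 125161715 to 125166467) had 30465, 27768 and 32373 at day 5 and 55486, 45095 and 55741 at day 3 in the null line, and 30050.0, 31419 and 30457 at day 5 and 47186, 48458 and 49254 at day 3 in the floxed line (-0.78 ± 0.086 and -0.66 ± 0.086). Day 5 libraries lay below all day 3 libraries for each of these genes. Pgam1 (ENSMUSG00000011752.6, chromosome 19, 41911923 to 41918660) had 13363, 13060.3 and 12575 at day 5 and 22855, 20791 and 19605 at day 3 in the null line, and 12738, 13642 and 12336 at day 5 and 18943, 18932 and 18798 at day 3 in the floxed line (-0.70 ± 0.067 and -0.55 ± 0.067).

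Falls between the days were greatest in Hk2 (-1.56) and Pfkp (-1.48) in the null line and in Aldoc (-2.07) and Aldoa (-1.50) in the floxed line. Members that rose were few. Pdk2 (0.95 in null and 0.77 in floxed) and Pfkfb4 (0.50 and 0.71) rose in both lines, and Pdk4 (1.29) and Pygl (1.28) passed in the null line alone, with 0.43 for Pygl in the floxed line (adjusted p = 0.24). The Pfkfb4 call in the null line was lost without null day 3 library 1 (adjusted p = 0.0746) or 2 (0.0599), null day 5 library 2 (0.133) or 3 (0.0685), or the libraries numbered 3 (0.0949). Slc16a1 passed in the null line (-0.34, adjusted p = 0.012), except without null day 3 library 1 (0.0542) or 2 (0.0525), and had -0.074 in the floxed line. Slc2a1 passed in the floxed line (-0.61, adjusted p = 0.0084) and with the replicate block in the null line (-0.38, adjusted p = 0.0316). It also passed in the null line without null day 3 library 2 (0.0138) or null day 5 library 1 (0.0494), and its call in the floxed line was lost without the libraries numbered 3 (0.116). Without single libraries, 3 further changes passed, namely Gbe1 in the null line without null day 3 library 3 (0.0152), and in the floxed line Pdk4 without null day 5 library 3 (0.0411) and Pdha1 without null day 3 library 3 (0.0225). Pdk3 was near the threshold in both (adjusted p = 0.0238 in null and 0.0481 in floxed). It was lost in the null line without null day 3 library 1 (0.0752) or null day 5 library 3 (0.0971), and in the floxed line without any 1 of 10 libraries (0.0539 to 0.213), floxed day 5 library 2 and null day 5 library 3 being the exceptions. The change in the floxed line was -0.14 without floxed day 5 library 3. The change between the days differed between the lines for Pdk4 by the interaction test of limma, for Aldoc also with the replicate block (adjusted p = 0.0419), and for Aldoc (0.0144) and Aldoa (0.049) also with DESeq2.

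**Figure D4:**
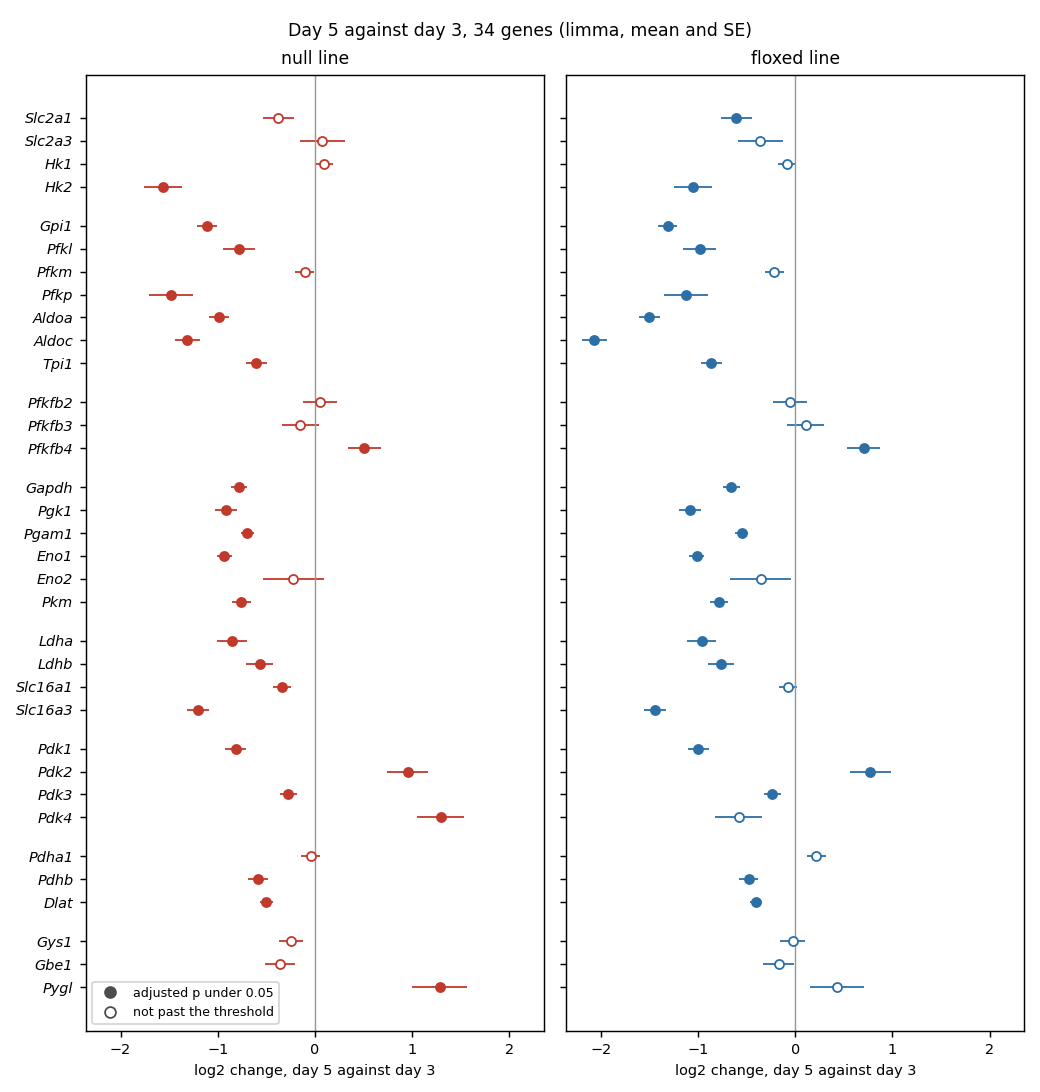
Log2 change (horizontal axis) of each of the 34 genes at day 5 against day 3 in the null line (left) and the floxed line (right), with points for the limma estimate, bars for its SE and filled points for an adjusted p under 0.05. Most filled points lie left of 0 in both lines (20 in each), and Pdk4 is right of 0 in the null line and left of it, not filled, in the floxed line.

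As a share of all recovered reads, the 34 genes took 2.40% ± 0.243 in null and 2.08% ± 0.0699 in floxed libraries at day 3, and 1.59% ± 0.0512 in null and 1.24% ± 0.113 in floxed libraries at day 5 (SD, n = 3 each). Null libraries ranged above floxed ones at both days, and day 5 below day 3. Per kilobase of annotated exons, the scale on which levels of different genes may be compared, Aldoa (27911 normalised reads in null and 22426 in floxed at day 3) and Pkm (21588 and 20316) were the most abundant members. Pdk4 (23.0 in null and 18.7 in floxed) and Pfkfb2 (15.9 and 15.2) were among the least abundant at that day, so the largest change of the members at day 5 sat in one of their rarest transcripts. Among the kinases, Pdk1 had 746 per kilobase in null and 406 in floxed at day 5, well above Pdk4 with 57.5 in null and 12.3 in floxed.

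Of 55 further genes of glycolysis, gluconeogenesis, glycogen and pyruvate handling, 50 could be tested. There 4 were higher (8%) and 1 lower (2%) in null at day 3, beside 4.09% and 2.03% of all genes tested. At day 5, 8 were higher (16%) and 5 lower (10%), beside 13.0% and 13.5% (median of the list 0.020). With the replicate block, 7 were higher and 1 lower at day 3 (6.45% and 4.53% of all genes tested). Pgm1 (ENSMUSG00000025791.18, chromosome 4, 99929414 to 99987294), the phosphoglucomutase that links glycogen with glycolysis, had 2955, 2781 and 2659.9 normalised reads in null and 996, 1273 and 1188 in floxed libraries at day 5. At day 3 it had 5628, 4678 and 5219 in null and 3592, 3930.5 and 3761 in floxed libraries. Its null libraries lay far above the floxed ones at day 5 (1.29 ± 0.094, adjusted p = 1.1e-05) and higher at day 3 (0.46 ± 0.094, adjusted p = 0.0137), and the difference between the days passed as well (0.83 ± 0.13, adjusted p = 0.0308; 0.0125 with the replicate block). The interaction call was lost without null day 3 library 1 (adjusted p = 0.0733) or 2 (0.0774), floxed day 3 library 1 (0.0628) or 2 (0.0805), null day 5 library 1 (0.0612), 2 (0.079) or 3 (0.0528), floxed day 5 library 3 (0.0544), or all libraries numbered 3 (0.0902). Its day 3 call was lost without floxed day 3 library 1 (0.061) or null day 3 library 1 (0.0514) or 3 (0.0537). Over the days Pgm1 fell in both lines (-0.88 in null and -1.71 in floxed).

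Ugp2, which makes UDP-glucose for glycogen, was higher in null at day 3 (0.53 ± 0.086) and day 5 (0.46 ± 0.086), and G6pc3, a glucose 6-phosphatase, was too (0.68 ± 0.13 and 0.76 ± 0.13). Both are on chromosome 11, and with its median subtracted only G6pc3 at day 5 was still called (0.43, adjusted p = 0.0346), as Ugp2 had 0.17 (0.311) and 0.13 (0.294) and G6pc3 had 0.32 (0.211) at day 3. The day 3 call of G6pc3 was lost without null day 3 library 3 (0.0532) and that of Ugp2 without the libraries numbered 3 (0.0566). Pfkfb1, another of the bifunctional enzymes, was higher at day 5 (0.80 ± 0.15, adjusted p = 0.00232). Gpd1l, related to glycerol 3-phosphate dehydrogenase, was lower at day 3 (-0.39 ± 0.083, adjusted p = 0.0146), a call lost without floxed day 3 library 1 (0.061) or null day 3 library 3 (0.0517). Between days the smallest p were those of Gpt2 (-1.11), Me3 (3.66) and Pgm1 in the null line and of Pgm1, Hkdc1 (3.16) and Gyg (0.99) in the floxed line.

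Genes of neighbouring pathways were looked at in the same way. Of 13 pentose phosphate genes, 0 were called at day 3, and at day 5 1 was higher and 4 lower in null (median -0.31). The replicate block gave 1 higher and 7 lower at day 5 (15.9% and 17.3% of all genes tested). The 4 lower at day 5 without the block included Tkt, the transketolase (-0.78 ± 0.091, adjusted p = 0.000163), and G6pdx, the glucose 6-phosphate dehydrogenase at the entry of the pathway (-0.51 ± 0.11). The others were the ribose phosphate pyrophosphokinases Prps1 (-0.34 ± 0.094) and Prps2 (-0.33 ± 0.11). H6pd, the dehydrogenase of the endoplasmic reticulum, was higher (0.44 ± 0.12). Of 18 genes of the TCA cycle, 0 were called at day 3, and at day 5 1 (Ogdh) was higher and 2 (Aco1 and Idh2) lower (median -0.071). With the block 1 was higher at day 3. Ogdh is on chromosome 11 and was not called with that chromosome centred (adjusted p = 0.801). At day 5, 30.8% of the pentose phosphate genes were called lower and 41.2% of the members higher, beside 13.5% and 13.0% of all genes tested. The lists were not tested against each other.

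**Figure D5:**
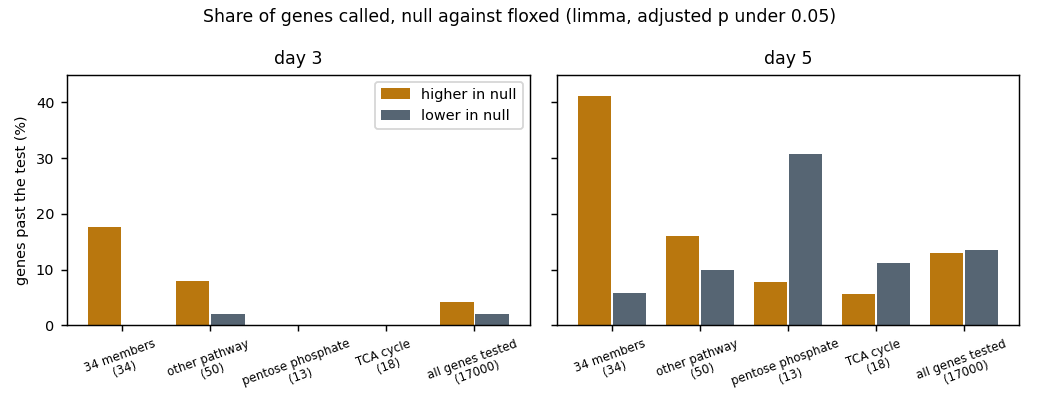
Share of tested genes called higher (orange) or lower (grey) in null against floxed embryoid bodies at day 3 and day 5, in percent, for the 34 genes, 3 neighbouring lists and all genes tested, with the number tested in brackets. At day 5 the bar of the 34 genes called higher (41.2%) stands above that of all genes (13.0%), and the bar of pentose phosphate genes called lower (30.8%) above that of all genes (13.5%).

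Regulators known to act on the pathway moved in more than 1 way. Myc (ENSMUSG00000022346.14, chromosome 15, 61985391 to 61990374) had 147, 120.0 and 68.6 normalised reads in null and 477, 389 and 261 in floxed libraries at day 5. The day 3 values were 127, 131 and 79.6 in null and 176, 201 and 138 in floxed libraries. It was lower in null at day 5 (-1.76 ± 0.30, adjusted p = 0.0014) and not called at day 3 (-0.62 ± 0.30, adjusted p = 0.24; 0.0225 with the replicate block). Of the 8 genes of the Myc network, 1 was higher (12.5%) at day 3, beside 4.09% of all genes tested. At day 5, 3 were higher and 3 lower (37.5% each), beside 13.0% and 13.5%. With the replicate block 2 were higher and 1 lower at day 3 (6.45% and 4.53% of all genes tested). Mxi1, a Myc antagonist, was the one higher at both days (0.62 ± 0.17 and 0.64 ± 0.17). At day 5 Mlxipl, the glucose-sensing factor ChREBP (1.33 ± 0.25), and its partner Mlx (0.38 ± 0.11) were higher too, Mlx being a chromosome 11 gene that was not called with that chromosome centred (adjusted p = 0.736). Mycn (-0.36 ± 0.11) and the Myc partner Max (-0.32 ± 0.078) were lower. Hif1a (ENSMUSG00000021109.13, chromosome 12, 73901375 to 73947530), the HIF-1 alpha subunit, had 4686, 5046 and 4153 in null and 5712, 4677 and 4786 in floxed libraries at day 5. Its day 3 values were 4356, 5543 and 4504 in null and 5559, 6002 and 5453 in floxed libraries. Its messenger RNA was not called (-0.25 ± 0.11, adjusted p = 0.186, and -0.13 ± 0.11, adjusted p = 0.41), and HIF-1 alpha is known to be set mainly by the stability of its protein, which was not measured. Of the 10 regulators of the HIF pathway, 1 was higher (10%) at day 3. At day 5, 2 were higher and 2 lower (20% each), beside 13.0% and 13.5% of all genes tested. The block gave 1 higher and 1 lower at day 3. At day 5 it gave 4 higher and 2 lower (15.9% and 17.3% of all genes tested). The prolyl hydroxylases Egln1 (0.66 ± 0.12 at day 3 and 0.77 ± 0.12 at day 5) and Egln3 (1.30 ± 0.27 at day 5), themselves known HIF targets, were those higher in null without the block, while Egln2 (-0.39 ± 0.098) and Arnt2 (-0.70 ± 0.13) were lower at day 5. The part of these regulators in the changes of the members was not tested.

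Markers of cell states differed with genotype and day beside these genes. Of all genes tested, 2.03% were lower in null at day 3 and 13.5% at day 5. Of 7 pluripotency markers, 0 were called at day 3 and 4 were lower in null at day 5. Their summed level at day 5 was 5215 to 8502 normalised reads in null and 10098 to 13569 in floxed libraries. At day 3 it was 13978 to 19975 in null and 17561 to 23753 in floxed libraries. Pou5f1 made up most of the day 3 sums, with a mean of 9501 in null and 11893 in floxed libraries. The 7 markers did not all fall between the days. In the floxed line 4 rose and 3 fell, where 22.5% of all genes tested rose and 19.2% fell. In the null line 1 rose and 3 fell (22.6% and 21.9%). Of 4 primed epiblast markers, 2 were lower in null at day 3 and 3 at day 5. They summed to 6890.4 to 8971 in null and 8995 to 12109.9 in floxed at day 5, and to 19848 to 26553 in null and 20502 to 29377 in floxed at day 3. Dnmt3b made up most of these sums, with a day 5 mean of 7100 in null and 9823 in floxed libraries. Of 4 neural markers, 1 was lower in null at day 5 (5139 to 6861 in null and 7754 to 12616 in floxed, against 3686 to 4877 in null and 4195 to 5219 in floxed at day 3). At day 3, 0 were called. Nes was the largest part of these sums, with a day 3 mean of 3132 in null and 2334 in floxed libraries. Day 3 means of Sox1 (836 in null and 1807 in floxed), Pax6 (212 and 465) and Zic1 (3.71 and 19.6) lay the other way. Of 5 primitive streak markers, 4 are in the table and 1 was lower in null at day 5. Their sums were 259.8 to 361 in null and 354 to 577 in floxed at day 5, and 204 to 227 in null and 177 to 219 in floxed at day 3.

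Markers of other cell types were mostly not called between the genotypes. The 6 markers of extraembryonic endoderm summed to 1498 to 2305 in null and 1231 to 3956 in floxed at day 5, and to 426 to 486 in null and 312 to 698 in floxed at day 3. The 2 trophoblast markers in the table, of 3, summed to 3743 to 9793 in null and 3885 to 11746 in floxed at day 5, and to 548 to 1320.0 in null and 886 to 3111 in floxed at day 3. Neither list had a called gene. Most of the trophoblast sum was Krt8, with a day 5 mean of 7542 in null and 9054 in floxed libraries. Cdx2 had 9.29 in null and 30.6 in floxed at that day. Of 8 fibroblast feeder markers 7 are in the table, and 1 was higher in null at day 3 (summed 283 to 352 in null and 297 to 312 in floxed), with Postn near 0 at that day. At day 5 none was called (1196 to 3014 in null and 1056 to 2859 in floxed). Of 5 blood markers 2 are in the table, at 37.3 to 75.7 in null and 24.3 to 40.2 in floxed at day 5 and 3.58 to 6.69 in null and 2.72 to 6.43 in floxed at day 3, when Hbb-bh1 was at 0 in null. The part of these cell states in the differences of the members was not tested.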

How the data were processed

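The deposited table holds 1 signal value per gene and library, a read count that the authors divided by 1 size factor per library. Per the submitters' processing notes, the tools were DESeq 1.16.0, HTSeq 0.6.0, TopHat2 2.0.10 and CASAVA 1.8.2 and the build mm10, with no role given, and the use of strand in counting is not given in the sources used here. All values (100%) were whole multiples of 1 read (tolerance 0.01), so whole reads were recovered, and size factors rebuilt from them were the same as those of the table. GENCODE M21 gave symbols for 18199 of 18269 IDs.

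The members and lists were chosen with earlier results of these data known. limma 3.58.1 (R 4.3.3; trend) was fitted to log2(value + 1) with 4 group means over the 12 libraries (8 residual and 5.00 prior degrees of freedom) for the 17000 genes whose mean reached 10 in 1 group or more, leaving out 1269. The pseudocount understates changes of low genes. On simulated data for the day 3 genotype comparison (16575 genes) the fit recovered 22 of 50 genes changed 1.5-fold, 46 of 50 changed 2-fold, 50 of 50 changed 3-fold and 49 of 50 changed 4-fold, with 12 false calls. Genes of low mean were left out when the changed genes were drawn, and no deviation shared by library number was simulated. These rates may thus not hold for the rarest members. Because the values are not raw counts, edgeR 4.0.16 (quasi-likelihood) and DESeq2 1.42.0 on the recovered reads served as alternatives. The others were 2 further scalings, pseudocount 5, no filter or a minimum mean of 50, the replicate block, the compared groups alone, each library left out, chromosome 11 centred (its median change subtracted), and, added after seeing the data, all libraries numbered 3 left out.

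Named with values were members called between genotypes or in the interaction, the 4 of smallest p between days only, Kat2a, Myc and Hif1a, and the called genes of smallest p in the list of further pathway genes. Other genes were named after their values were seen. Depth limits the rarest members, among them Pdk2, Pdk4 and Pfkfb2.

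Same-numbered null and floxed libraries deviated together from their group means (r across genes 0.270 to 0.372 at day 3 and 0.247 to 0.424 at day 5, against at most -0.0175 and 0.0268 for different numbers). So did those of the null line between days (0.123 to 0.282). In the floxed line between days r was 0.0814 to 0.214, so the numbers are not taken to pair those. The replicate block still spans all 12 libraries, so its calls between days in the floxed line carry that limit. No libraries of a group were near copies (chi-squared per degree of freedom at least 10.4).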

Additional observations from a re-analysis of the deposited data

Results flagged for a closer look

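The genotype difference of Pdk4 changed between the days by 1.87 on the log2 scale (1.87 ± 0.34, adjusted p = 0.0353 in limma), as it was 2.15 at day 5 and 0.28 at day 3. The genotype difference of Pgm1 changed by 0.83 (0.83 ± 0.13, adjusted p = 0.0308), being 1.29 at day 5 and 0.46 at day 3. For both genes the day 5 change is the larger one, and each interaction call was lost without most single libraries.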

How the results depend on the processing

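No call of a member changed direction under any alternative. Members higher in null numbered 6 at day 3, but 11 with DESeq2, which called 6.99% of all its genes higher. Members lower in null at day 5 numbered 2, and 1 to 2 with single libraries left out. Members higher in the interaction numbered 1, but 3 with DESeq2 (1.63% of its genes), 2 with the replicate block, 0 without the libraries numbered 3, and 0 to 2 with single libraries left out. Counts higher in null with single libraries left out ran from 4 to 8 at day 3 and from 12 to 17 at day 5. With the libraries numbered 3 left out they were 4 and 10. Shares of all genes tested called with libraries left out were not computed, so these counts describe the members alone.

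The replicate block gave 9 members higher at day 3, 15 higher and 2 lower at day 5, 4 higher and 22 lower between the days in the null line and 3 higher and 20 lower in the floxed line. Besides the calls already named with the pairing, it added Gbe1 in the null line (adjusted p = 0.0204) and Pdha1 in the floxed line (0.022) between days, and ended no call of a member. The Pdha1 call rests on library numbers that are not taken to pair the days of that line. Why the tools differ was not tested. Depth limits Pdk2, Pdk4, Pfkfb2 and Pfkfb4, whose counts are the lowest, and a missed threshold there does not show that levels were alike.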
